A study of Mus musculus with 2 samples.

Results

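The cells described here are the 150 cells, of 2209 in all, with the highest combined expression of Car9, Egln3 and Ero1l, genes that respond to low oxygen, in mouse intestinal organoids carrying an Apc mutation. They were chosen by adding the deposited natural log values of these 3 genes in each cell and taking the 150 highest sums over both libraries together, so the levels of the 3 genes themselves are a description and not a finding. They are called members below, and the remaining 2059 cells other cells. Organoids are small cultures grown from intestinal crypts, and loss of Apc, a tumour suppressor, leaves Wnt signalling switched on. Single-cell RNA was captured in droplets from 1 library labelled DBZ, a gamma-secretase inhibitor that prevents release of the active part of Notch receptors, and from 1 library labelled DMSO, its solvent. Both come from Apc mutant organoids of strain C57Bl, at an age of 3 to 4 months, and the same protocol line, 300 nM 4-OH-tam (4-hydroxytamoxifen) with 10 uM DBZ, stands in the labels of both, so the titles were followed for the treatment. The labels do not say which Apc allele, Cre line or number of mice was used, and one set of cell names begins with CTRL and the other with GSI, which were read as DMSO and DBZ. With 1 library per treatment no test was made: each comparison is between libraries or between cells of a library, intervals are exact 95% intervals that cover counting error only, and treatment and library cannot be told apart.

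Cells sense oxygen through prolyl hydroxylases, of which Egln3 is one, that mark the HIF alpha proteins for destruction by the Vhl ubiquitin ligase while oxygen is present. When oxygen is short, HIF alpha pairs with Arnt and turns on genes for glucose uptake, glycolysis, pH control, matrix processing and blood vessel growth, and also for the hydroxylases themselves. Car9, a carbonic anhydrase on the cell surface that helps to keep the cell interior from acidifying, and Ero1l, an oxidase that feeds disulfide bond formation in the endoplasmic reticulum, are among the genes known to respond. In the intestine, oxygen falls from the crypt towards the lumen, and HIF in the epithelium is known for its part in barrier genes.

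HIF binds DNA at a short core, ACGTG or GCGTG on either strand, and the promoters of the genes that chose the cells, of the leading genes among those that did not, and of 2 HIF targets seen in most members (P4ha2 and Fam162a, added after their values were seen) are shown for these letters, in capitals. In RefSeq (GRCm38.p6), 38.6% of 32851 promoters held a core in the 250 bases before the start. Car9 lies at chr4:43506966-43513729 on the plus strand, Egln3 at chr12:54178981-54203860 and Ero1l at chr14:45283087-45318771, both on the minus strand (GENCODE vM21). The Car9 core and the Ero1l cores lie in bases that GENCODE annotates as exon of the gene, so for these genes and for AA467197 30 bases are given. They are Car9 at chr4:43506996-43507025 (plus strand, ending 1 base before the RefSeq start), Ero1l at chr14:45318631-45318660 (minus strand, RefSeq symbol Ero1a) and AA467197 at chr2:122637793-122637822 (plus strand). The longer stretches are Egln3 at chr12:54203875-54204124 (minus strand), P4ha2 at chr11:54100674-54100923 (plus strand), Fam162a at chr16:36071595-36071811 (minus strand) and Reg3g at chr6:78468875-78469124 (minus strand).
Car9: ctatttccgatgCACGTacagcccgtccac
Ero1l: GCGTGgacagaggcgcgcgccgctgCACGT
AA467197: ctgcagggggcgCACGTGagttgactcagt
Egln3: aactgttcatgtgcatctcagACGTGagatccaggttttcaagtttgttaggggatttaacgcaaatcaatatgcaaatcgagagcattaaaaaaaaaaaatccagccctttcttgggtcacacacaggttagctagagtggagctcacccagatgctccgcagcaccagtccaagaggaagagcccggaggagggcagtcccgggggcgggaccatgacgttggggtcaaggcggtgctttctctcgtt
P4ha2: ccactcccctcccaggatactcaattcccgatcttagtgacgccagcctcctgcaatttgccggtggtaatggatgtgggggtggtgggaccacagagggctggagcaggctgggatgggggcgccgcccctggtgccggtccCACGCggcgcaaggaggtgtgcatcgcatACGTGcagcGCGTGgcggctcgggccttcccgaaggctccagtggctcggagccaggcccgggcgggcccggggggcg
Fam162a: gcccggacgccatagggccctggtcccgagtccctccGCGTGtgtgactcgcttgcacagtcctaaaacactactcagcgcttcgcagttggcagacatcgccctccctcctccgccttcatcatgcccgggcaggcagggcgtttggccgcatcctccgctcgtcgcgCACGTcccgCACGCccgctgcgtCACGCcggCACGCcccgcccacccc
Reg3g: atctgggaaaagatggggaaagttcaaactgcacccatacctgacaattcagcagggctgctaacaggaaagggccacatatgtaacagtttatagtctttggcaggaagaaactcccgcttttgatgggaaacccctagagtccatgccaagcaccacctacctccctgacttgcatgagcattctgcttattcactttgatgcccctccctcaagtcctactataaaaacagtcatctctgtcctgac
CACGT and CACGC are the cores read on the other strand, and the CACGTG of AA467197 is the same core on both strands. Fam162a held 6 cores in its 250 bases, P4ha2 3, and Reg3g none of these letters. Of the 18 glycolysis genes described below, 16 (88.9%) had a promoter with a core, against 65.4% of the 6705 genes measured in both libraries that had an entry. Only 23 of the 31 measured HIF targets had an entry, under 80%, so no share is given for them. Hmox1 was in the ranking as well and is named only.

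The rule sum ran from 8.75 in the highest cell, a DMSO cell with 8 Car9, 11 Egln3 and 47 Ero1l UMIs (unique molecules), to 4.26 in the last member. The first cell left out had 4.23, so no gap separates members from the next cells. All 3 genes were seen in 139 of the 150 members and 2 of them in the other 11, while 206 of the 2059 other cells had all 3 and 784 had none. Levels are given per 10000 UMIs of a cell. Car9 averaged 6.60 in the 115 DMSO members against 1.23 in the other DMSO cells, and 6.14 in the 35 DBZ members against 0.588. Egln3 averaged 3.22 against 0.385 in DMSO and 3.23 against 0.224 in DBZ. Ero1l averaged 11.6 against 0.954 in DMSO and 9.79 against 0.517 in DBZ. Within the members Ero1l was the most spread of these, from 0.694 to 63.2 in DMSO and from 2.81 to 38.1 in DBZ.

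Each of the 3 genes was also high in the cells that the other 2 picked. When Car9 was left out of the sum, the 150 cells chosen had 5.25 Car9 in DMSO against 1.40 in the rest, a log2 difference of 1.88, and 5.24 against 0.625 in DBZ, a difference of 2.97. Egln3, left out in turn, differed by 2.50 and 3.01, and Ero1l by 2.92 and 3.12. The genes thus marked overlapping sets of cells in each library. The 3 genes were put together in the rule with earlier results of these data known. Their overlap is therefore a description and no separate evidence of a shared state. With 1 of the genes left out, 113 to 130 of the 150 members were chosen again. That number is partly built in, because the other 2 genes stayed in the sum.

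**Figure D1:**
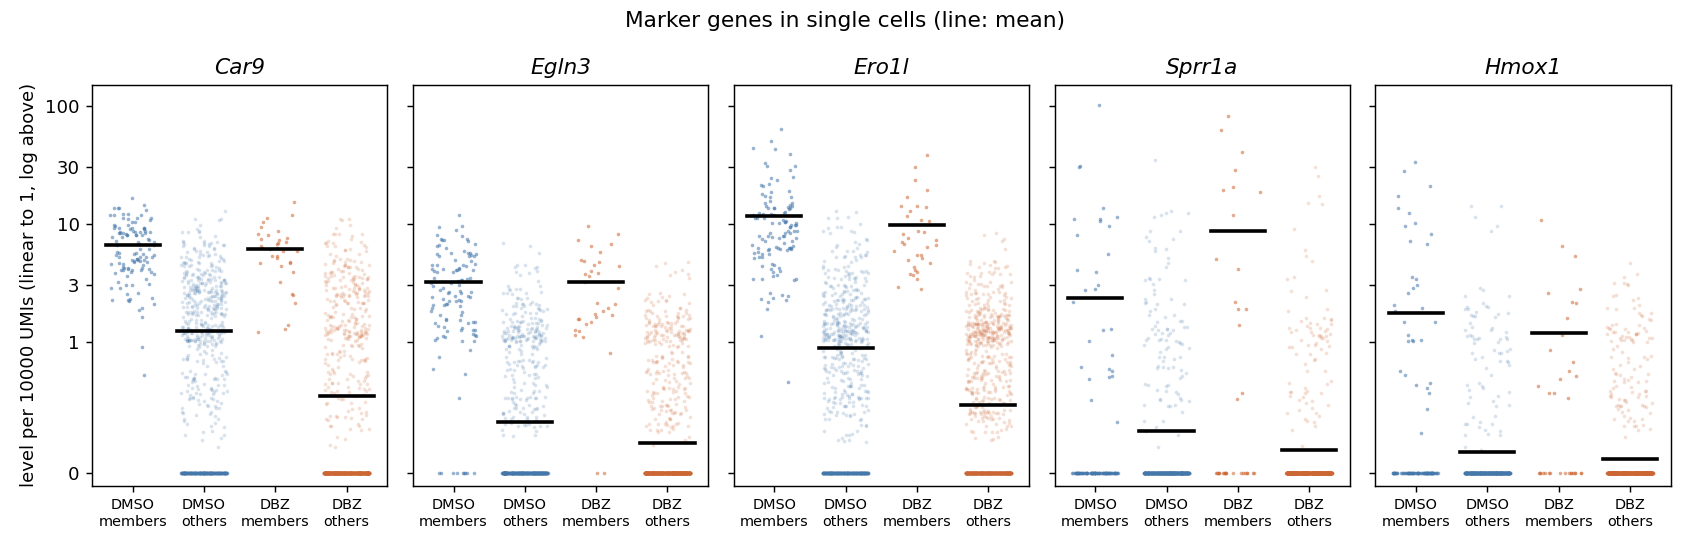
Level per 10000 UMIs (linear up to 1, logarithmic above) of the 3 genes of the rule and of Sprr1a and Hmox1 in single cells of each library, with 1 point per cell and a line at the mean. Car9, Egln3 and Ero1l are high in nearly all members by construction, whereas Sprr1a was seen in 25.2% of DMSO and 45.7% of DBZ members and most members sit at 0.

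The other marker genes, Sprr1a and Hmox1, played no part in the choice of cells and were high in a minority of members. They were named as markers with earlier results of these data known, so their levels in members are a description. Sprr1a, a small proline-rich protein of cornified and injured epithelium (chr3:92483952-92485895, minus strand), had a UMI in 29 of 115 DMSO members (25.2%, 17.6 to 34.2) and 16 of 35 DBZ members (45.7%, 28.8 to 63.4). The share in other cells was 12.1% in DMSO and 6.97% in DBZ, and in the enteroendocrine-like cluster, a cell type not known for this gene, 7.14% and 4.83%. Hmox1, the enzyme that breaks down haem (chr8:75093621-75100589, plus strand), had a UMI in 29.6% (21.4 to 38.8) of DMSO members and 51.4% (34.0 to 68.6) of DBZ members, against 9.26% and 9.70% of other cells and 16.7% and 3.86% of the enteroendocrine-like cluster. Median depth was 11953 UMIs in DMSO members and 13983 in DBZ members, against 7963 and 8734 in that cluster. With every cell thinned to 5000 UMIs the shares of members were 16.5% and 42.9% for Sprr1a and 20.9% and 31.4% for Hmox1, against 7.15% and 3.32%, and 5.28% and 4.81%, of other cells.

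Members were found mostly in the DMSO library. They made up 115 of its 968 cells (11.9%, 9.91 to 14.1) and 35 of the 1241 DBZ cells (2.82%, 1.97 to 3.90), so that 76.7% of the members were DMSO cells. With 100 members 8.06% of DMSO and 1.77% of DBZ cells were taken, and without Ero1l in the rule 10.5% and 3.87%. The depth of members was close to that of other cells in DMSO (medians of 11953 and 10971 UMIs) and higher in DBZ (13983 against 10819). The median share of mitochondrial UMIs was 4.47% in DMSO members against 4.39% in other DMSO cells, and 4.62% against 4.68% in DBZ. Cells above the 95th percentile of UMIs of their library numbered 5 of the 115 and 1 of the 35 members. 3 cell barcodes occur in both libraries, and 2 members carry one.

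Glycolysis genes were higher in members than in other cells of the same library. All 18 glycolysis genes seen in enough cells (at least 10% of members or of other cells, in each library) were above 0 in both libraries, beside 27.3% of the 8322 genes measured in both, and 10 of the 18 were at least 2-fold higher in both, beside 1.39%. In DMSO alone 11 were at least 2-fold higher (1.89% of all genes) and in DBZ 12 (5.27%). The median log2 difference over the list was 1.11 in DMSO and 1.30 in DBZ, beside -0.10 and -0.02 over all genes. Against other cells weighted to the clusters of the members, described below, 16 of the 18 stayed above 0 in both libraries and 0 were 2-fold higher in both, with Pfkfb3 at -0.14 in DMSO and Aldoc at -0.31 in DBZ. All log2 differences carry a pseudocount of 0.05, which understates those of low genes.

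Glucose enters through Slc2a1, whose level was 1.25 in DMSO members against 0.478 in other cells and 1.10 against 0.312 in DBZ (log2 1.30 and 1.67). Hk1 and Hk2, the hexokinases that trap glucose in the cell, differed by 1.23 and 0.75 in DMSO and by 1.5 and 0.83 in DBZ. Gpi1, the next enzyme, averaged 21.9 against 7.19 in DMSO and 13.01 against 4.67 in DBZ, with pooled-UMI intervals for the log2 ratio of 1.56 to 1.68 and 1.32 to 1.56. Pfkp, a form of phosphofructokinase, had the highest difference of the list in DBZ, 2.08 (2.19 against 0.479), and 1.58 in DMSO (2.09 against 0.667). Its sister enzyme Pfkl differed by only 0.32 and 0.62.

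The steps below that point were higher as well. Aldoa, the main aldolase, averaged 41.7 against 17.4 in DMSO and 30.4 against 11.7 in DBZ. The members above the mean of other cells numbered 113 of 115 for Aldoa in DMSO and 34 of 35 in DBZ. Gapdh was 39.9 against 18.2 in DMSO and 37.4 against 15.5 in DBZ. Pgk1 (log2 1.31 and 1.34) and Pgam1 (1.24 and 1.39) differed by similar amounts, Eno1 by 0.99 and 1.02, and Tpi1 by 0.52 and 0.55. Pkm, which forms pyruvate, differed by 0.69 and 0.62. Gapdh, Aldoa, Pgam1, Eno1 and Ldha have processed copies elsewhere in the genome, and how the authors' counting treated reads shared with them is not given in the sources used here.

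Ldha, which turns pyruvate into lactate, averaged 29.6 against 14.7 in DMSO and 22.6 against 9.80 in DBZ. Slc16a3, the exporter of lactate, was 4.34 against 1.69 and 4.16 against 1.24 (log2 1.34 and 1.71). Bsg, the chaperone that brings this exporter to the membrane, averaged 66.2 against 23.2 in DMSO and 65.0 against 18.7 in DBZ, and 104 of 115 and 33 of 35 members lay above the mean of other cells. Pdk1, which keeps pyruvate out of the mitochondrion, differed by 0.70 in DMSO and 1.34 in DBZ. Pfkfb3 showed the smallest difference in DBZ, 0.37, with a pooled interval of -0.05 to 0.96. Slc2a3, Pfkm, Pfkfb4 and Eno2 were seen in too few cells to be compared.

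**Figure D2:**
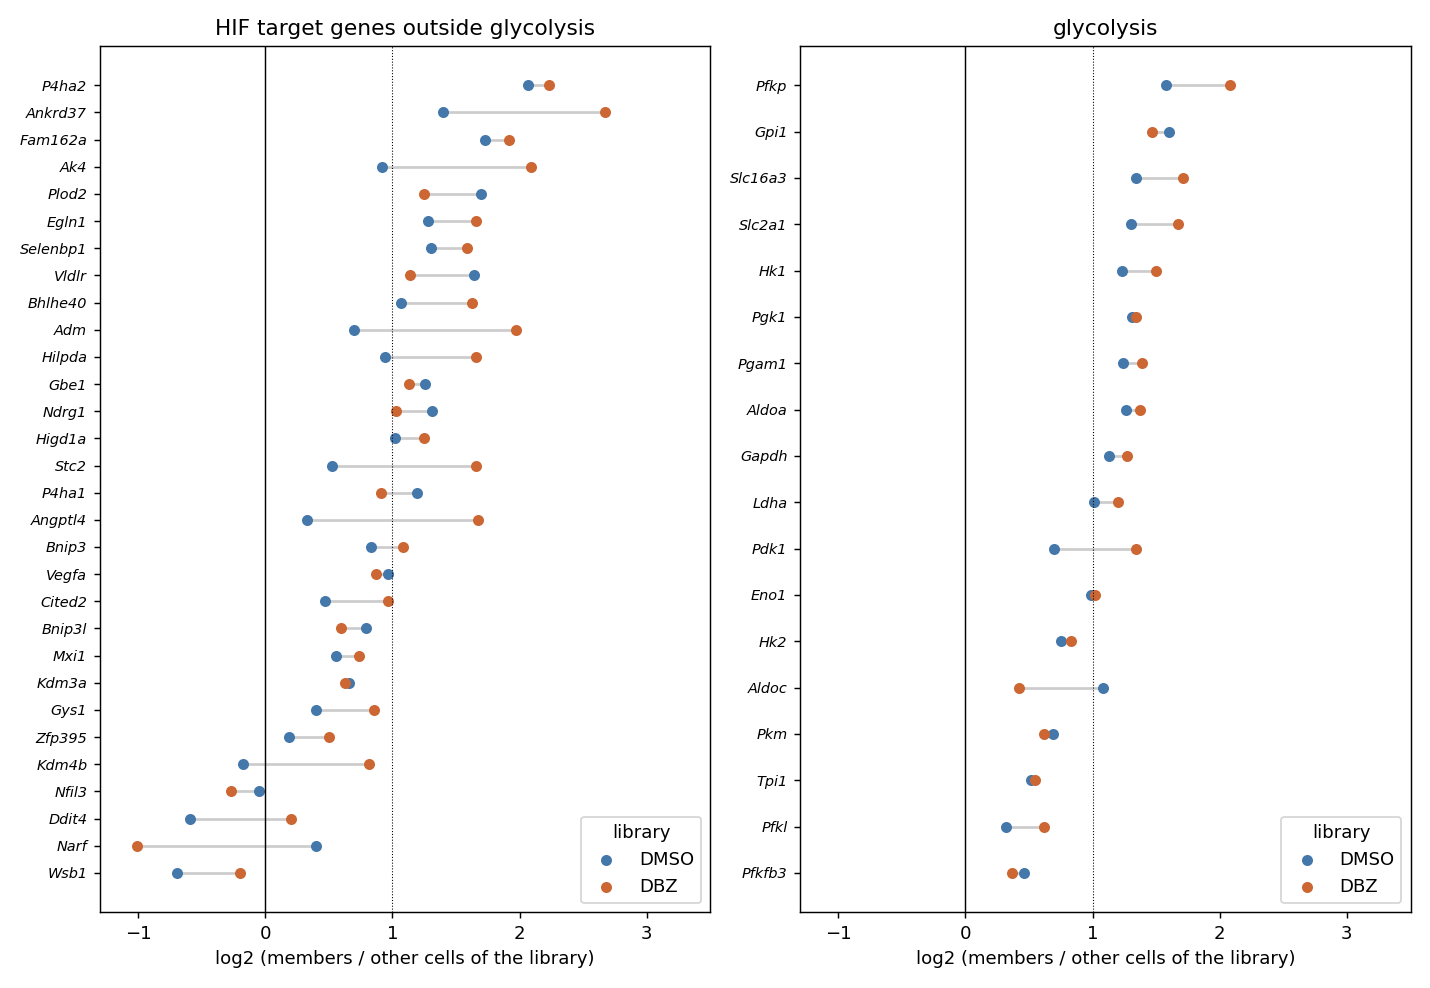
Log2 of the mean level in members over that in other cells of the same library for the HIF targets (left, 30 of 31) and glycolysis genes (right) seen in enough cells of both libraries, DMSO in blue and DBZ in orange, with a dotted line at 2-fold. All 18 glycolysis genes lie right of 0 in both libraries, while among HIF targets Wsb1 and Nfil3 lie left of 0 in both.

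HIF targets outside glycolysis were higher in most but not all cases. Of 36 genes listed, 31 passed the filter in both libraries. Among these, 25 were above 0 in both libraries, 2 were below 0 in both and 11 were at least 2-fold higher in both. The shares over all genes were 27.3%, 40.7% and 1.39%. The medians over the genes that passed in a library were 0.87 in DMSO and 1.05 in DBZ. Against other cells weighted to the members' clusters, 25 were again above 0 in both libraries, but 0 were 2-fold higher in both, and Stc2 was at -0.20 in DMSO. Car12, Pgf, Plod1 and Tmem45a did not pass in both, and Lox was not used here.

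Of the HIF targets that act on collagen, P4ha2, a prolyl hydroxylase (chr11:54100095-54131665, plus strand), had the highest difference and averaged 0.942 in DMSO members against 0.186 and 0.985 in DBZ members against 0.170, log2 differences of 2.07 and 2.23. It was seen in 65.2% of DMSO and 74.3% of DBZ members, against 18.4% and 16.5% of other cells and 28.6% and 13.5% of the enteroendocrine-like cluster. Its partner P4ha1 differed by 1.19 and 0.91, and Plod2, a lysyl hydroxylase of collagen, by 1.70 and 1.25. Plod1, another lysyl hydroxylase, was at -0.33 in DMSO, where it was seen in too few cells. In DBZ it was at -1.004, from 1 UMI in the members and with a pooled interval of -7.41 to 0.41.

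Mitochondrial and metabolic HIF targets had higher means in members, some in nearly every cell and some in a minority. Fam162a, a mitochondrial protein (chr16:36043761-36071594, minus strand), had a UMI in all members and averaged 10.2 against 3.04 in DMSO and 8.32 against 2.17 in DBZ (log2 1.73 and 1.92). It lay above the mean of other cells in 111 of 115 and 33 of 35 members. Higd1a, a protein of the respiratory chain, averaged 6.38 against 3.12 and 7.77 against 3.25. Bnip3 and Bnip3l, which mark mitochondria for removal, differed by 0.83 and 0.79 in DMSO and by 1.08 and 0.60 in DBZ. Ak4, a mitochondrial adenylate kinase, differed by 0.92 in DMSO and 2.09 in DBZ, and was seen in 32.2% and 62.9% of members. Gbe1, the glycogen branching enzyme, differed by 1.26 and 1.13 but was seen in 25.2% and 34.3% of members. Selenbp1, a selenium-binding oxidase, differed by 1.30 and 1.59 and was seen in 66.1% and 51.4%.

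Secreted signals and regulators were more mixed. Vegfa, the growth factor for blood vessels, averaged 0.712 against 0.341 in DMSO and 0.676 against 0.347 in DBZ, a difference of 0.96 and 0.87. Adm, a vasoactive peptide, differed by 0.70 in DMSO and 1.98 in DBZ, where 5 cells gave 87.0% of the members' mean. Ankrd37 reached 1.40 and 2.67, Ndrg1 1.31 and 1.03, the lipid receptor Vldlr 1.64 and 1.14, and the repressor Bhlhe40 1.06 and 1.63. Ddit4, which restrains mTOR and also answers other stresses, was lower in DMSO members, at 0.512 against 0.798, with a difference of -0.59 and a pooled interval of -1.01 to -0.33, but 0.20 in DBZ with an interval of -0.14 to 0.79. Wsb1, part of a ubiquitin ligase, was at -0.70 and -0.19, and Nfil3, a transcription factor, at -0.05 and -0.27. The pooled interval included 0 in both libraries for Nfil3 and in DBZ for Wsb1.

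The remaining HIF targets had smaller or less even differences. Hilpda, which protects lipid droplets, differed by 0.94 in DMSO and 1.66 in DBZ. Angptl4, an inhibitor of lipoprotein lipase, differed by 0.33 and 1.67, and Stc2, a secreted glycoprotein, by 0.52 and 1.66. Cited2, which competes with HIF for its coactivators, differed by 0.47 and 0.96, the MYC antagonist Mxi1 by 0.56 and 0.74, and the histone demethylase Kdm3a by 0.66 and 0.63. Gys1, the muscle type of glycogen synthase, was at 0.40 and 0.86, and Zfp395 at 0.19 and 0.50. The pooled interval included 0 in DMSO for Gys1 and in both libraries for Zfp395 (-0.78 to 1.46 in DBZ). Narf (0.40 and -1.01) and the demethylase Kdm4b (-0.17 and 0.82) had opposite signs in the libraries.

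Egln1 stood out in the machinery that senses oxygen. Of 14 such genes measured in both libraries, 1 was at least 2-fold higher in both, beside 1.39% of all genes. This was Egln1, the main hydroxylase and itself a HIF target, at 0.528 against 0.189 in DMSO and 0.873 against 0.242 in DBZ (log2 1.28 and 1.66). Hif1a averaged 0.438 against 0.279 in DMSO and 0.710 against 0.475 in DBZ, with pooled intervals of 0.03 to 0.83 and 0.02 to 1.03. Epas1, which encodes the other main alpha subunit, was seen in too few cells to be compared. Arnt differed by 0.59 in DMSO and -0.46 in DBZ, and Vhl by 0.09 and -0.40. Both intervals for Vhl and for Egln2, the remaining hydroxylase, included 0. The subunits of the Vhl ligase were close to level: Cul2 was at -0.11 and -0.24, Rbx1 at -0.06 and -0.03, Tceb1 at 0.11 and 0.31 and Tceb2 at 0.05 and 0.29. Hif1an, the asparagine hydroxylase of HIF, was at 0.17 and 0.23. The coactivators Ep300 (0.39 and 0.24) and Crebbp (-0.09 and 0.17) and the ligases Siah1a (-0.15 and -0.23) and Siah2 (-0.21 and 0.35) also stayed within 2-fold. RNA levels do not show the amount of HIF protein, which is set after transcription.

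Of the carbonic anhydrases and pH transporters other than Car9, 9 were measured in both libraries. At least 2-fold higher in both were 3 of them, beside 1.39% of all genes. These were Bsg and Slc16a3, described above, and Slc4a4, a bicarbonate cotransporter, with 0.604 against 0.265 in DMSO and 1.54 against 0.369 in DBZ. Car2, the abundant enzyme of the cytosol, differed by 0.41 and 0.65.

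In both libraries, cells ranked just below the last member had higher median sums of glycolysis genes and HIF targets than cells without any of the 3 genes. Summed glycolysis levels had a median of 237 in the 40 DMSO cells of ranks 1 to 50 by the rule sum, 196.6 in the 75 DMSO cells of ranks 51 to 150, 167.4 in the 102 cells next in rank, 139.7 in the 173 after these (up to rank 600) and 68.0 in the 229 cells without a UMI of any of the 3 genes. The DBZ medians in the same order were 167.4, 147.4, 157.3, 127.6 and 51.9, from 10, 25, 48, 127 and 555 cells, and did not fall at each step. Summed HIF targets had medians of 55.6, 41.4, 33.4, 26.9 and 15.9 in DMSO and 47.1, 45.6, 35.6, 31.1 and 15.7 in DBZ. Cells past rank 600 with a UMI of any of the 3 genes numbered 349 in DMSO and 476 in DBZ. Their medians were 88.4 and 74.4 for glycolysis and 17.2 and 16.95 for HIF targets. Ranks rest on few UMIs of the 3 genes. Whether the program is graded or the ranks mix separate cell states was not tested. Depth differed along this order, with medians of 12150 UMIs in the first DMSO group and 9601 in the last, and its part in the order was not tested. With other cells weighted to the depth of the members, the list medians were 0.91 and 1.13 for HIF targets and 1.10 and 1.27 for glycolysis.

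**Figure D3:**
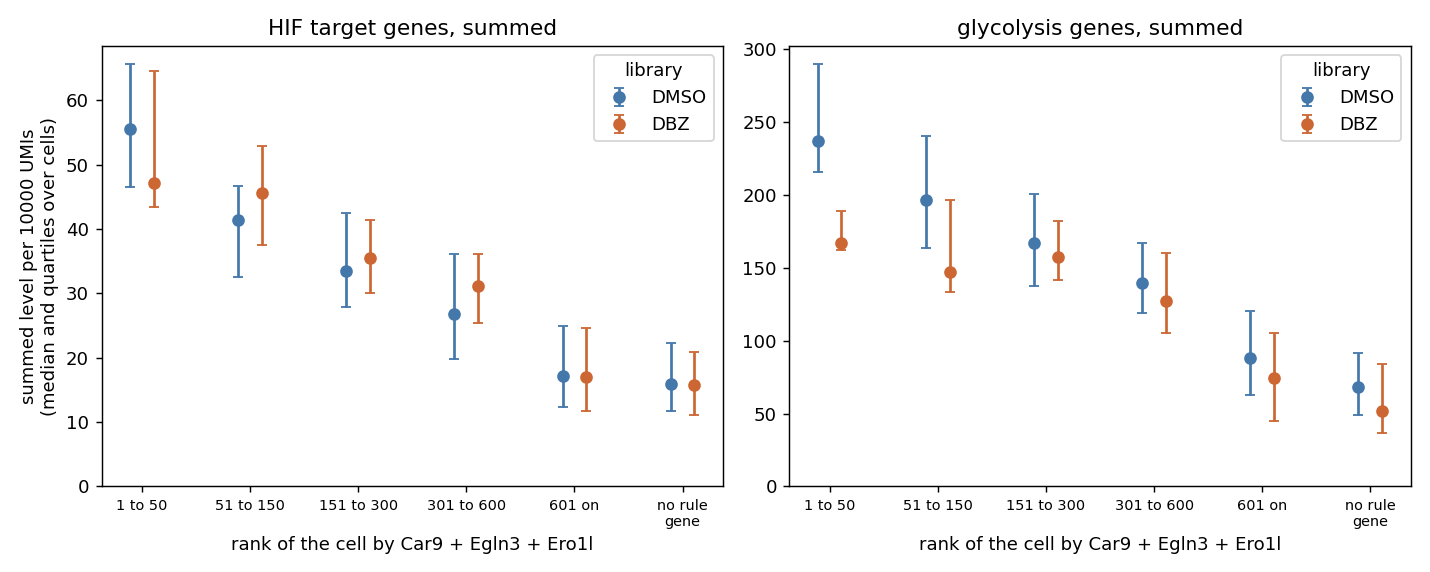
Summed level per 10000 UMIs of the HIF targets (left) and glycolysis genes (right) in cells grouped by their rank in the sum of Car9, Egln3 and Ero1l, with medians as points and quartiles as bars for each library. In both libraries the sums are lowest in cells without any of the 3 genes, with glycolysis medians of 68.0 in DMSO and 51.9 in DBZ.

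Over all genes, 116 of 8322 were at least 2-fold higher in members of both libraries and 95 (1.14%) at least 2-fold lower. With a pseudocount of 0.5 in place of 0.05 these counts were 20 and 15. In DMSO alone 237 genes (2.75%) were at least 2-fold lower, and in DBZ alone 565 (6.16%). The 15 highest, ranked by the smaller of the differences in the libraries, were Reg3g, AA467197, Hmox1, Sprr1a, Alox12b, Ptges, Akr1b8, Reg3b, Bmp2, P4ha2, Tnfrsf23, Prdm1, Cd68, H2-Ab1 and Fam162a. Only P4ha2 and Fam162a of these are on the HIF target list.

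Several of the leading genes were carried by very few cells. Reg3g, a secreted antibacterial lectin (chr6:78466269-78468872, minus strand), averaged 5.64 in DMSO members against 0.328 in other cells, but its median in members was 0, the highest cell had 272.6 and 5 cells gave 90.4% of the mean. In DBZ the mean was 15.1 against 0.532, with a highest cell of 323 and 98.4% from 5 cells. Without those 5 cells the log2 difference went from 3.91 to 0.70 in DMSO and from 4.70 to -0.78 in DBZ. Reg3b, a paralog whose reads may be shared with it, went from 2.25 to -1.55 and from 4.03 to -2.73. Of the 5 highest cells of each, Reg3g and Reg3b shared 3 in DMSO and 4 in DBZ.

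AA467197, which RefSeq lists with the synonyms Nmes1 and mir-147 (chr2:122636986-122641191, plus strand), averaged 1.16 against 0.0733 in DMSO and 2.74 against 0.0292 in DBZ. It was seen in 11.3% of DMSO and 28.6% of DBZ members, against 3.05% and 2.49% of other cells. Without its 5 highest cells the difference was 0.58 in DMSO and 2.83 in DBZ. Hmox1, without its own 5, kept 2.03 and 1.69, and Sprr1a 1.15 and 3.37. The 5 highest Sprr1a cells shared none with the 5 highest Hmox1 or AA467197 cells in either library, and with the 5 highest Reg3g cells 0 in DMSO and 1 in DBZ. Of the 15 genes, 10 stayed at least 2-fold higher in both libraries without their 5 highest members.

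Genes of prostaglandin, lipid and aldehyde metabolism followed. Ptges, which makes prostaglandin E, averaged 0.564 against 0.0567 in DMSO and 0.608 against 0.0361 in DBZ, and was seen in 33.9% and 37.1% of members. Akr1b8, an aldo-keto reductase, averaged 0.554 against 0.0705 and 1.31 against 0.100, and was seen in 34.8% and 54.3% of members. Alox12b, a lipoxygenase of the skin barrier, averaged 0.864 against 0.0943 and 0.366 against 0.0370. In the enteroendocrine-like cluster a Ptges UMI was seen in 0 of 42 DMSO cells, which allows a share of up to 8.41% (the exact upper limit), and in 0.483% of DBZ cells.

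Some genes better known from immune cells were also present at low levels. Cd68, a lysosomal protein of macrophages, was seen in 35.7% of DMSO and 57.1% of DBZ members, against 8.91% and 7.63% of other cells. H2-Ab1, a class II antigen-presenting chain, was seen in 32.2% and 42.9%, against 7.74% and 5.06%. None of the 11 listed markers of immune cells, such as Ptprc, was in the table used here, 2 of 10 fibroblast markers were, and 3 of 8 endothelial markers. Prdm1, a transcription factor of the immature intestine, averaged 0.227 against 0.0219 in DMSO and 0.262 against 0.0435 in DBZ, and Bmp2, a signal of the villus, 0.346 against 0.0419 and 0.523 against 0.0379. Tnfrsf23, a decoy receptor, was seen in 32.2% and 34.3% of members.

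Among other gene groups, targets of the oxidant sensor NRF2 had list medians of 0.54 in DMSO and 0.67 in DBZ. Of 19 measured genes, 14 were above 0 in both libraries (27.3% of all genes) and 4 at least 2-fold higher in both (1.39%). Gclc, for glutathione synthesis, averaged 0.860 against 0.270 and 0.942 against 0.276. Me1, the malic enzyme that supplies NADPH, differed by 1.42 and 2.00, Gsta4, a glutathione transferase, by 1.12 and 1.97, and Ftl1, a ferritin chain, by 1.09 and 1.21. Weighted to the members' clusters, Me1 was at -0.15 in DMSO and Gsta4 at -0.05, with 0.08 for Gsta4 in DBZ, where 5 cells gave 70.6% of its mean in members. With that weighting 11 of the 19 were above 0 in both libraries and 0 were 2-fold higher in both. Genes for folding by oxidation in the endoplasmic reticulum, the pathway that Ero1l serves, did not differ together: 0 of 13 were at least 2-fold higher in both libraries, and the medians were -0.19 and 0.02. P4hb, the disulfide isomerase that Ero1l oxidises, was at 0.79 and 0.49. The unfolded protein and integrated stress response genes had medians of -0.17 and 0.20, with Cebpb alone of 27 at least 2-fold higher in both (1.14 and 1.46).

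Nuclear genes of oxidative phosphorylation were close to level, with medians of -0.09 in DMSO and -0.08 in DBZ and 0 of 40 past 2-fold in either direction. The 13 mitochondrially encoded genes had medians of 0.23 and 0.17. Targets of p53 and death genes had medians of 0.46 and 0.78. Of 13 measured in both libraries, 10 were above 0 in both (27.3% of all genes) and 0 were at least 2-fold higher in both (1.39%).

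The squamous and wound-associated genes had medians of 0.77 in DMSO and 1.42 in DBZ. Of 22 genes, 19 were above 0 in both libraries (27.3% of all genes) and 8 at least 2-fold higher in both (1.39%). Areg, an EGF-family ligand, averaged 4.18 against 1.91 in DMSO and 4.93 against 0.628 in DBZ. Plaur, the urokinase receptor, averaged 1.06 against 0.458 and 1.51 against 0.194. Il1rn, the interleukin 1 antagonist, differed by 1.48 and 3.42, Anxa3 by 1.48 and 3.00 and Ly6a by 1.12 and 3.99, but 5 cells gave 61.0% to 89.5% of the members' means of these 3 genes. Against other cells weighted to the members' clusters the list medians were 0.01 and 0.27, 10 of the 22 were above 0 in both libraries, 1 was at least 2-fold higher in both, and Ly6a was at -0.39 in DMSO. Immediate early genes differed in opposite directions, with medians of -0.72 in DMSO and 0.19 in DBZ.

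**Figure D4:**
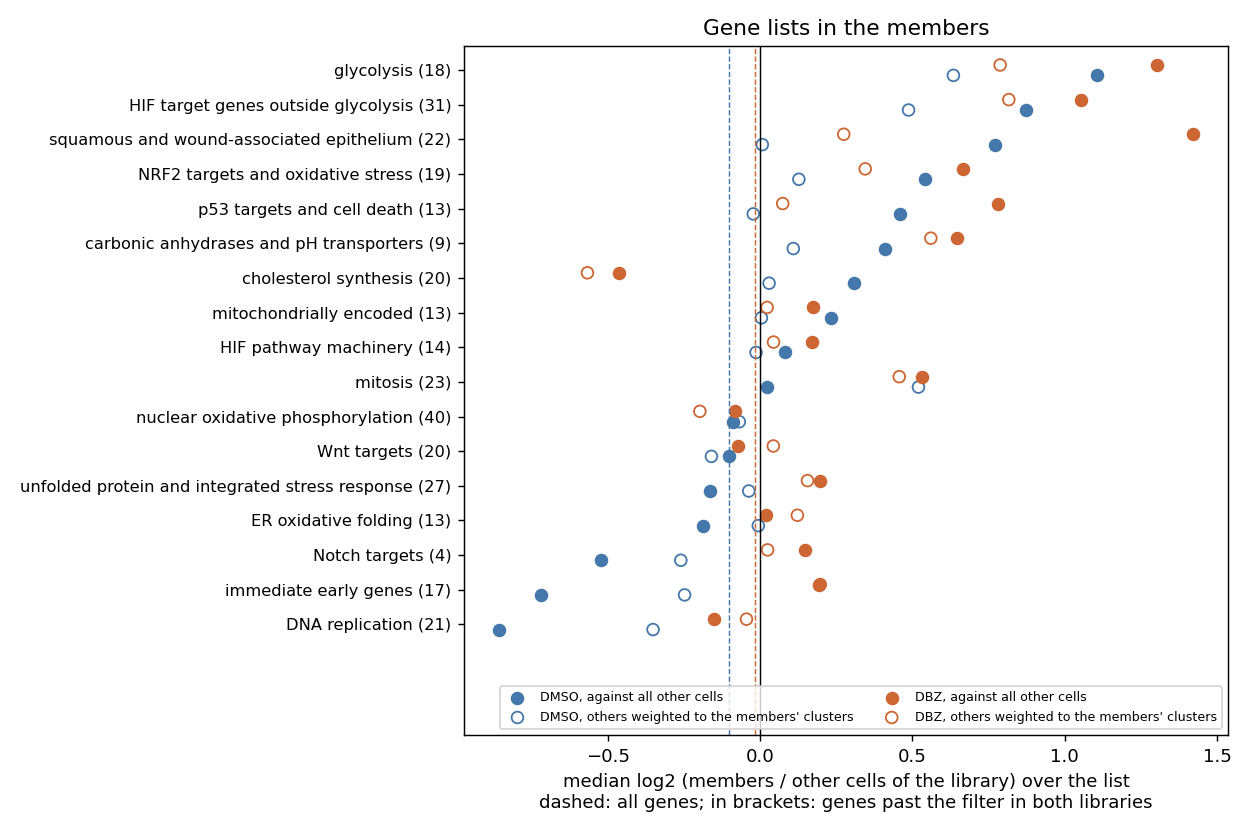
Median log2 of members over other cells for 17 gene lists, DMSO in blue and DBZ in orange, with filled points against all other cells, open points against other cells weighted to the clusters of the members, and dashed lines at the medians of all genes. Glycolysis stays highest among the open points in DMSO at 0.63, while the squamous and wound-associated list drops to 0.01 in DMSO and 0.27 in DBZ.

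Among the 10 lowest genes, ranked in the same way, were Defa20, Ceacam10, Neb, Ptprt, Smoc2, Cplx2, Cacna1a, Defa17 and Notum. Ceacam10 was listed at 0 in every DBZ member. Notum, a Wnt-inactivating enzyme induced by Wnt itself, averaged 2.52 in DMSO members against 9.24 and 2.91 in DBZ members against 15.2. Smoc2, a stem cell gene, averaged 0.655 against 2.78 and 0.174 against 1.06, and Lgr5, the stem cell receptor, 0.569 against 1.44 and 0.509 against 1.09. The 11 stem cell markers measured in both libraries had medians of -0.48 in DMSO and 0.08 in DBZ. They went both ways, with 4 above 0 in both and 5 below 0 in both, beside 27.3% and 40.7% of all genes. Those above 0 were Axin2, Slc12a2 (0.12 and 0.96), Igfbp4 (0.40 and 1.99) and Tnfrsf19 (0.21 and 0.40). Axin2, which is also a Wnt target, was at 0.15 and 0.08 on the log2 scale. The list of 20 Wnt targets had medians of -0.10 and -0.07, with 3 genes at least 2-fold lower in both libraries (1.14% of all genes).

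Defensins, the antimicrobial peptides of Paneth cells, had low means in members. Defa20 averaged 2.16 in DMSO members against 16.5 and 6.25 in DBZ members against 74.5. A Defa20 UMI was nonetheless seen in 97.1% of DBZ members, 97.2% of other DBZ cells and 99.5% of the DBZ cells of the enteroendocrine-like cluster. The share did not set members apart and was not read as expression. Whether it reflects low expression or RNA from outside the cell was not tested. Against other cells weighted to the members' clusters Defa20 was at 0.18 in DMSO and -1.25 in DBZ, and Defa17 at 0.89 and 0.41, so their direction depended on which other cells were compared. Defensins are near-identical copies, and reads may be split among them. Of 4 enterocyte markers measured in both libraries, 0 were above 0 in both, beside 27.3% of all genes. With only 4 genes this count was not read further.

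DNA replication genes had medians of -0.86 in DMSO and -0.15 in DBZ. Of 21 genes, 0 were above 0 in both libraries and 13 below 0 in both, beside 27.3% and 40.7% of all genes. Dut, which clears uracil precursors, averaged 0.304 against 0.950 and 0.253 against 0.693. After thinning to 5000 UMIs, 2.61% (0.541 to 7.44) of DMSO members exceeded the 90th percentile of summed replication UMIs, against 9.50% of other cells, and in DBZ 8.57% (1.80 to 23.1) against 9.37%. For mitosis genes the shares were 10.4% of DMSO members against 9.61% and 11.4% of DBZ members against 10.0%. The mitosis list had medians of 0.02 in DMSO and 0.53 in DBZ, with 11 of 23 genes above 0 in both libraries and 4 below. Against other cells weighted to the members' clusters the medians were 0.52 and 0.46. Pooled UMIs of the list went the other way, at -0.12 and -0.10. The unthinned medians were 4 replication UMIs in DMSO members against 5, 4 in both groups of DBZ, and 1 mitosis UMI in each group.

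When cells were compared by their whole expression with the 3 genes left out, members lay near one another. Of the 15 nearest neighbours of a member, 41.2% were members on average, whereas members are 6.79% of all cells. In DMSO the share was 41.5%, where members are 11.9% of the cells, and in DBZ 40.2%, where they are 2.82%. Neighbours of DMSO members were DMSO cells in 88.7% of cases and neighbours of DBZ members DBZ cells in 63.6%. Only 6 members had no member among their neighbours.

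Of 9 clusters, cluster 6 held 106 of the members (70.7%), 88 from DMSO and 18 from DBZ, and members were 54.4% of its 195 cells. Its 10 leading genes by fold included the markers Sprr1a and Hmox1 besides Ero1l and Egln3. These genes of the rule did not enter the clustering and were not counted for the name. Fewer than 3 markers thus remained to name it, and it was left unnamed. The other 44 members lay elsewhere. A mitotic cluster led by Ube2c held 17. The cluster led by Npy and Nts held 11, all from DBZ, which is 31.4% of the DBZ members. The defensin-rich, Paneth-like cluster held 0 of 76, and the enteroendocrine-like cluster 2 of 251.

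**Figure D5:**
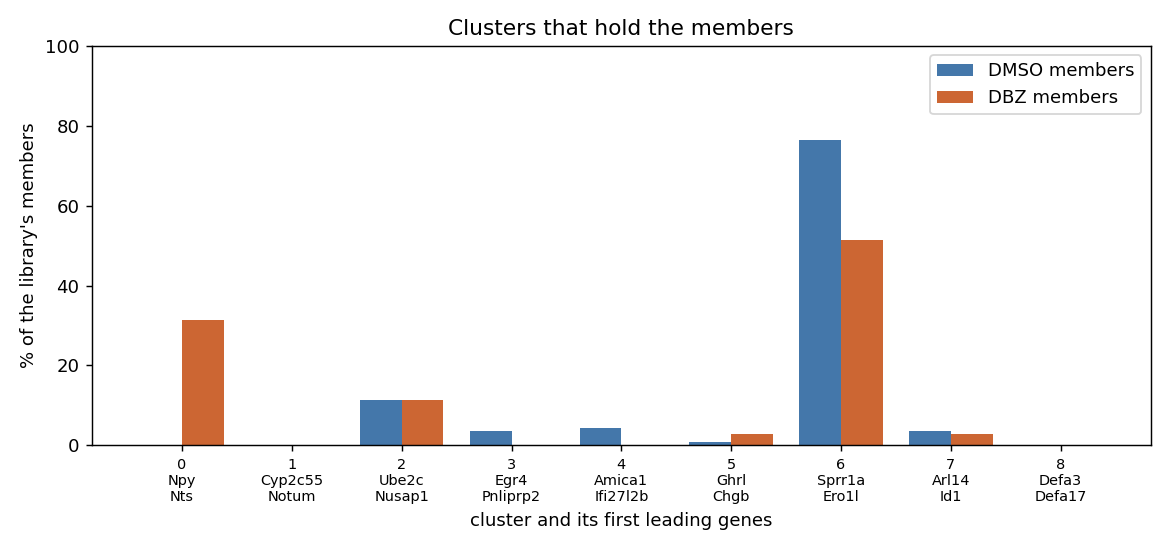
Percent of the members of each library that fell into each of 9 clusters, made without the 3 genes of the rule, DMSO in blue and DBZ in orange. Cluster 6 holds 76.5% of DMSO and 51.4% of DBZ members, and cluster 0 holds 31.4% of DBZ members and none from DMSO.

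Median sums were higher in members than in other cells both inside cluster 6 and outside it, with overlap between the groups. In DMSO the median of summed glycolysis was 228.1 in the 88 members inside, 162.6 in the 63 other cells inside, 180.9 in the 27 members elsewhere and 96.4 in the 790 other cells elsewhere. In DBZ the values in the same order were 177.5, 151.8, 142.0 and 67.5, for 18, 26, 17 and 1180 cells, so that members elsewhere lay below the other cells inside. The DBZ quartiles inside the cluster overlapped, from 145.9 to 196 in members and from 118.2 to 177.2 in other cells. Summed HIF targets had medians of 46.3, 31.1, 44.15 and 20.01 in DMSO and 48.9, 28.6, 45.1 and 17.4 in DBZ. Sprr1a averaged 16.2 in DBZ members inside and 0.587 in DBZ members elsewhere, and 2.80 and 0.923 in DMSO. It is the first leading gene of the cluster and was not kept out of the clustering, so this contrast is partly built in. Fam162a averaged 10.99 and 7.64 in DMSO members inside and elsewhere, against 6.69 in the cluster's other cells.

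Compared with other cells weighted to the members' clusters, the number of genes at least 2-fold higher in both libraries went from 116 to 11 and the number lower from 95 to 6. The HIF target medians were then 0.49 in DMSO and 0.82 in DBZ, and those of glycolysis 0.63 and 0.79. NRF2 targets went to 0.13 and 0.35, and p53 targets to -0.02 and 0.07. Clusters were made from all variable genes but the 3 of the rule, so genes that differ in members also entered them.

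Between the libraries, the treatment labels were checked first. Hes1, the classical Notch target, averaged 3.54 in DMSO members and 0.945 in DBZ members, a log2 difference of -1.85, beside -1.90 between the other cells. It was chosen after its value was seen, and of 5 measured Notch targets it was the only 1 at least 2-fold lower. The median of the 5 was 0.06 between members and -0.30 between the other cells, so the list as a whole was not lower in DBZ members. Over all 8960 genes measured, 637 (7.11%) were at least 2-fold higher in DBZ members and 266 (2.97%) at least 2-fold lower, with 35 cells on one side. HIF targets had a median difference of 0.14 between DBZ and DMSO members, with 1 of 32 at least 2-fold higher and 2 lower, beside -0.16 between the other cells. The sign of this median turned when the 75 highest cells of each library were taken (-0.18) and when Ero1l was left out of the rule (-0.025). The glycolysis median was -0.13, beside -0.38 between other cells, with Aldoc alone at least 2-fold lower (5.22 in DMSO and 1.93 in DBZ members).

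Cholesterol synthesis genes had lower levels in DBZ members than in DMSO members. Of 20 genes, 12 were at least 2-fold lower and 0 at least 2-fold higher, beside 2.97% and 7.11% of all genes. The median was -1.11, beside -0.47 between the other cells of the libraries. Fdps, which makes farnesyl diphosphate, averaged 4.19 in DMSO and 0.697 in DBZ members, with a pooled interval of the log2 ratio of -2.95 to -1.98. Hmgcs1, at the entry of the pathway, averaged 2.29 and 0.671, and Msmo1, a sterol oxidase, 3.38 and 1.12. Tm7sf2, a sterol reductase, went the other way, at 0.56, with an interval that included 0. Within DMSO, members exceeded other cells in this list by a median of 0.31, and within DBZ the median was -0.46. Against other cells weighted to the members' clusters these medians were 0.03 and -0.57. The difference of these differences was not tested.

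Squamous and wound-associated genes had a median of 0.57 in DBZ against DMSO members, beside -0.40 between the other cells. At least 2-fold higher were 8 of 22, beside 7.11% of all genes. Sprr1a averaged 8.60 in DBZ and 2.36 in DMSO members, and 5 cells gave 77.6% and 69.0% of these means. The 5 genes highest in DBZ against DMSO members were Tff3, S100g, Nts, Lcn2 and Chgb. Lcn2 averaged 1.22 in DBZ and 0.0664 in DMSO members, and the DBZ mean was 0.0565 without its 5 highest cells. Nts is a leading gene of the cluster that held 11 DBZ members and 0 DMSO members. The part of that cluster in its difference was not tested. Tff3, a goblet cell peptide, averaged 24.3 in DBZ and 0.147 in DMSO members, but 5 cells gave 97.1% of the DBZ mean, and without them it was 0.825. A Tff3 UMI was seen in 74.3% of DBZ members, beside 72.6% of other DBZ cells and 72.5% of those in the enteroendocrine-like cluster. That share did not set members apart and was not read as expression, and its source was not tested. The 5 lowest were Prelp, which was listed at 0 in every DBZ member, Pmp22, Dio1, Fdps and Gadd45a. Gadd45a, a growth arrest gene, averaged 1.23 in DMSO and 0.178 in DBZ members, a difference of -2.48, beside -1.14 between the other cells.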

How the data were processed

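Single cells of 2 libraries, DBZ and DMSO, 1 each, were described; the design text speaks of 3000 cells a sample, and the table holds 1241 and 968. Per the submitters' processing notes, Cell Ranger 2.1.1 and Seurat were used with mm10, while annotation and cell filters were not given in the sources used here. Natural log values were deposited by the authors: exp(value) - 1 sums to 10000 in every cell, and all 7553435 values above 0 were whole multiples of 1 step per cell within 0.01, which returns UMIs (13083018 in DMSO and 16168229 in DBZ, at least 5187 a cell). No count model was run. Levels are exp(value) - 1, averaged with equal weight per cell, and a difference is log2 with a pseudocount of 0.05, over genes seen in at least 10% of either group. Pooled UMIs gave exact conditional intervals and shares exact Clopper-Pearson intervals, at 95%. Python 3.11.15 with scipy 1.17.1 and scanpy 1.11.5 was used; neighbours and Leiden clusters came from 30 components of 2000 variable genes without Car9, Egln3 and Ero1l, 15 neighbours and resolution 1. Thinning to 5000 UMIs left out 0 cells. No doublet caller was run. The whole DMSO library is listed at 0 for 723 genes, and DBZ for 282. The code was tested on simulated cells.

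CTRL and GSI cell names were read as DMSO and DBZ from their meaning. Named genes are the 5 markers, the 15 highest and 10 lowest genes in members of both libraries and the 5 highest and 5 lowest between members of the libraries (leaving out the genes of the rule, Gm, Rik, mitochondrial and ribosomal genes and Xist), all measured HIF targets, glycolysis and oxygen-sensing genes, and the strongest and most expressed genes of other lists. Lgr5, Axin2, Slc12a2, Igfbp4, Tnfrsf19, Hes1, P4hb, Msmo1, Aldoc and Tm7sf2 were added after their values were seen. Members, lists and rules were chosen with earlier results of these data known. Some genes that these rules name are not reported here.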

Additional observations from a re-analysis of the deposited data

Results flagged for a closer look

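Members and other cells differed in opposite directions in the libraries for cholesterol synthesis. The median log2 difference of members from other cells over the 20 genes was 0.3085 in DMSO and -0.4634 in DBZ. Against other cells weighted to the members' clusters it was 0.03 and -0.57, so little of the DMSO difference remained. The difference between the libraries was not tested, since each has 1 library.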

How the results depend on the processing

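No paired analysis was possible because each treatment has 1 library. Taking the highest 75 cells of each library fixes the share of each library and so gives no value for it. The HIF target medians stayed above 0 in both libraries. For DMSO they were 0.96 with 100 cells, 0.92 with 200, 1.01 with 75 of each library, 1.02 without Car9, 0.42 and 0.93 with pseudocounts of 0.5 and 0.01, 0.81 with genes in at least 5% of cells, 0.79 without a filter and 0.49 weighted to clusters. For DBZ they were 1.13 with 100 cells, 1.18 after thinning, 0.92 with 75 of each, 0.51 with a pseudocount of 0.5, 0.96 without a filter, 1.17 from pooled UMIs, 1.13 weighted to depth and 0.82 weighted to clusters. Between DBZ and DMSO members they were 0.037 with 200 cells, -0.18 with 75 of each, -0.025 without Ero1l and 0.075 with a pseudocount of 0.5. Glycolysis in DMSO had medians of 1.18 with 100 cells, 1.04 with 200, 1.03 after thinning, 1.17 with 75 of each, 0.98, 1.05 and 1.08 without Car9, Egln3 and Ero1l, 1.07 without very deep cells, 0.91 with a pseudocount of 0.5, 1.05 with genes in 5% of cells, 1.00 without a filter, 1.16 from pooled UMIs, 0.63 weighted to clusters and 1.07 without shared barcodes. In DBZ it had 1.38 with 100 cells, 1.24 with 200, 1.35 ranked by levels, 1.17 with 75 of each, 1.13 without Ero1l, 0.92 with a pseudocount of 0.5, 1.24 with genes in 5% of cells, 1.11 without a filter, 1.27 weighted to depth and 0.79 weighted to clusters.

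Genes at least 2-fold higher in DMSO numbered 26 and 255 with pseudocounts of 0.5 and 0.01 and 59 weighted to clusters; in DBZ 318 after thinning, 250 with 75 of each, 83 with a pseudocount of 0.5 and 286 weighted to clusters; in both libraries 20 with a pseudocount of 0.5 and 11 weighted to clusters. Genes at least 2-fold lower in DMSO numbered 393 with 100 cells, 417 with 75 of each, 25 and 464 with pseudocounts of 0.5 and 0.01 and 45 weighted to clusters. In DBZ they were 926 with 100 cells, 316 with 200, 216 with 75 of each, 318 without Ero1l, and 51 and 864 with the pseudocounts. In both libraries they were 158 with 100 cells, 15 and 171 with the pseudocounts, 156 without a filter and 6 weighted to clusters. DMSO cells were 68.0% of members without Ero1l. The share of neighbours that are members was 48.2% with 200 cells, 38.1% after thinning, 38.3% with 75 of each, 45.1% without Car9, 38.6% without Ero1l and 38.1% with 30 neighbours. The causes were not tested. The weighting to clusters and the removal of shared barcodes were chosen after seeing the data.

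Values of single named genes had the other sign in 272 of 5676 recomputed values, and in 20 of these the reported value was past 2-fold. Members over others, the 20 include Gsta4 (-0.0466), Me1 (-0.147) and Ly6a (-0.388) in DMSO weighted to clusters, Fdps in DBZ (0.17 with 75 of each), Defa17 in DMSO (0.47 without Car9, 0.89 weighted to clusters) and DBZ (0.41 weighted to clusters), Defa20 in DMSO (0.55 without Car9, 0.18 weighted to clusters), Chgb in DBZ (2.60 without Ero1l, 0.28 weighted to clusters), Nts in DMSO (0.0107 weighted to clusters) and Pmp22 in DBZ (1.64 without Ero1l). Between DBZ and DMSO members, they include Defa20 (-1.70 without Car9), Reg3g (-0.23 with 75 of each, -0.53 without Ero1l), AA467197 (-0.31 with 100 cells, -0.15 with 75 of each, -1.20 without Ero1l) and Pmp22 (0.15 without Ero1l). The 35 DBZ members limit every value that rests on them, and 1 library per treatment limits all comparisons between libraries.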
